A study of Drosophila melanogaster with 63 samples.

Results

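ImpL2 encodes a secreted protein with immunoglobulin-like domains that binds insulin-like peptides of the fly. It was followed here through early and middle embryogenesis in wild type and in embryos mutant for the pair-rule gene even skipped (eve) or fushi tarazu (ftz). It is 1 gene of 12424 measured features, 9291 of them named genes, and was found by its symbol: 1 array row carries it. The gene was proposed from results of these arrays, for its difference in eve mutants at 6 to 10 h, so the mean differences of those hours are given below as a description with no test. Whole Drosophila melanogaster embryos were sampled at 2, 3, 6, 7, 8, 9 and 10 h after egg laying. Each of the 21 groups of genotype and time held 3 arrays, 63 in all. Wild type was set beside eve mutants and ftz mutants; the alleles, and the strain of the wild type, are not given in the labels. The mutant stocks carried GFP balancers, and the collected embryos were genotyped, per the labels' protocols, which do not say whether the wild type shared the background of the stocks. The labels do not say whether the 3 arrays of a group came from separate collections, so p-values cover the spread between these arrays, which may be technical.

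In textbook accounts, insulin-like peptides bind the receptor InR, which signals through chico, phosphoinositide 3-kinase, Pdk1 and Akt to restrain the transcription factor foxo and to raise growth through TOR. ImpL2 acts outside the cell as an antagonist: it binds such peptides, Ilp2 among them, and flies without it grow larger. The gene was first described as one of the Imp genes, whose transcripts are induced by the steroid hormone ecdysone in imaginal discs. In RefSeq it lies on chromosome arm 3L as a protein-coding gene with 4 annotated transcripts, which 1 array row cannot tell apart, and the coding gene CG46460 is annotated inside its span.

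A value below is the log2 ratio of the sample to a common reference made from embryos of 0 to 22 h, so it says how one gene moved between samples and cannot be set against the level of another gene. The deposited table does not state the side of the ratio, and sample over reference is the likely reading. On that reading the median of 8 maternal genes in wild type went from -0.16 to -1.03 between 2 and 10 h, that of 4 cellularization genes from 1.08 to -1.53, and that of 4 muscle genes from -2.44 to -2.02. All arrays carried the same set of sorted values, with a median of 0.00509. Replicate arrays of a group correlated over rows with r from 0.514 to 0.953 (median 0.826). The eve transcript was lower in eve mutants at 2 h, at -1.71 (SE 0.16, limma with adjusted p = 3.11e-11), and over 6 to 10 h by -0.50 (SE 0.072, adjusted p = 2.53e-07) but was not called at 3 h. The ftz transcript was not called in ftz mutants at 2 h, at 3 h or over 6 to 10 h, so it does not bear out the ftz label. At 2 h it was lower in eve mutants by -1.14 (SE 0.15, adjusted p = 1.53e-07), and the eve transcript was lower in ftz mutants by -0.67 (SE 0.16, adjusted p = 0.00603). RNA of whole embryos cannot tell apart fewer cells that express a gene and less RNA per cell.

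ImpL2 was low at 2 h and high from 3 h on in wild type. In both mutants the group mean was lowest at 2 h too, and at every later hour it lay below that of wild type. At 2 h the wild type arrays read -0.48, -0.45 and -0.74. At 3 h they read 1.004, 1.31 and 1.02, so that every 3 h array lay above every 2 h array. The mean was -0.56 ± 0.16 (SD, n = 3) at 2 h and 1.11 ± 0.17 (SD, n = 3) at 3 h, a rise of 1.67 log2 units or 3.17-fold (SE 0.22, limma, Benjamini-Hochberg adjusted p = 1.93e-07). By size this was the 23rd of 12424 differences between these times, of which 12.2% were called, that is, had an adjusted p below 0.05.

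In eve mutants the 2 h arrays read -0.52, -1.69 and -1.44, a wide spread, and the 3 h arrays -0.10, -0.057 and 0.20. All 3 h arrays were above all 2 h arrays here too. ImpL2 rose by 1.23 (SE 0.22, limma, adjusted p = 2.90e-05, 23.6% of features called), from -1.22 ± 0.62 (SD, n = 3) to 0.0132 ± 0.16 (SD, n = 3). In ftz mutants the 2 h arrays read -0.64, -1.11 and -0.41 and the 3 h arrays -0.20, -0.017 and -0.24. The 3 h arrays again lay above the 2 h arrays, but the difference of 0.57 (SE 0.22, limma, adjusted p = 0.0953, 8.92% of features called) did not pass, with a 95% interval of 0.13 to 1.003.

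**Figure D1:**
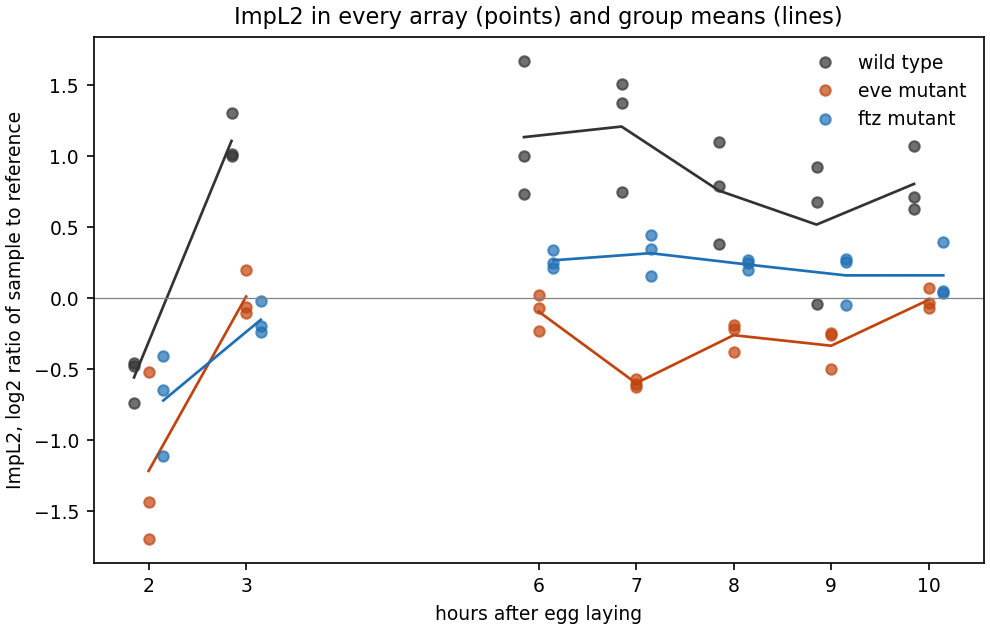
ImpL2 in each of the 63 arrays (points) and the mean of each group of 3 (lines), as the log2 ratio of sample to reference, by hours after egg laying; no arrays were taken between 3 and 6 h. Wild type goes from about -0.56 to 1.11 between 2 and 3 h and stays above both mutants in the group means of every later hour.

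At 3 h, in arrays outside the hours that chose the gene, ImpL2 was lower in both mutants than in wild type. In eve mutants the difference was -1.10 log2 units (SE 0.22, 95% interval -1.53 to -0.66), or 2.14-fold lower (limma, Benjamini-Hochberg adjusted p = 0.000537, 9.57% of features called, 4.17% as lower). In ftz mutants it was -1.26 (SE 0.22, 95% interval -1.69 to -0.83), or 2.39-fold lower (adjusted p = 5.71e-05, 13.7% called, 7.07% as lower). The highest mutant array at this time, an eve array at 0.20, was well below the lowest wild type array at 1.004. By size ImpL2 ranked 50th and 45th of 12424 in these comparisons, which share the wild type arrays. The mutants themselves differed by 0.16 (eve minus ftz, SE 0.22, 95% interval -0.27 to 0.60, adjusted p = 0.776, 5.35% of features called).

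Technical and label values stood beside the 3 h result. The eve transcript read 0.00224, 0.13 and 0.37 in the 3 arrays labelled eve at 3 h and -0.076, -0.15 and 0.12 in wild type, a difference of 0.21 (SE 0.16, limma, adjusted p = 0.499), so this transcript does not bear out the eve label of these arrays. The titles carry slide numbers, some of them shared by arrays of different groups, so a run of numbers may mix batches. At 3 h each genotype lay in a run of its own: wild type in slides 6 to 15, ftz in 56 to 74 and eve in 94 to 97. Within 3 h, run and genotype therefore cannot be told apart. In a fit of all arrays with runs as a term the ftz difference was -1.10 (SE 0.25, adjusted p = 0.00391). The eve difference became -0.58 (SE 0.43, adjusted p = 0.573), where the run of the eve arrays held 1 other array. Over that result's alternatives other than left-out arrays the adjusted p went from 8.72e-06 to 0.573. The steps from 2 to 3 h met a like limit. In eve mutants the 2 h arrays lay in slides 56 to 74 and the 3 h arrays in 94 to 97. Step and run thus cannot be told apart there. In wild type only 1 array of 2 h, at -0.74, shared the run of the 3 h arrays, which all lay above it. Only the ftz arrays lay in 1 run at both times, where the step of 0.57 did not pass.

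Tissue markers also differed at 3 h. The neuroectoderm gene ind was higher in eve mutants by 0.68 (SE 0.12, limma, adjusted p = 0.000223) and in ftz mutants by 0.43 (SE 0.12, adjusted p = 0.0158), and SoxN was lower by -0.63 (SE 0.17, adjusted p = 0.0108) and -0.70 (SE 0.17, adjusted p = 0.00305). Of 7 measured amnioserosa genes 1 was higher and 1 lower in eve mutants, against 1 higher and 4 lower in ftz mutants, beside 5.4% and 6.65% of all features called higher and 4.17% and 7.07% called lower. The fat body marker srp was lower in ftz mutants by -0.69 (SE 0.15, adjusted p = 0.00107) and was not called in eve mutants (-0.31, adjusted p = 0.194). Fbp1, the other measured fat body gene, was not called in eve (0.30, adjusted p = 0.135) or ftz mutants (0.043, adjusted p = 0.885). The hemocyte gene Pxn was higher in ftz mutants by 0.48 (SE 0.16, adjusted p = 0.0382), and no trachea gene was called in either. With slide runs as a term neither ind nor SoxN passed in either mutant (adjusted p from 0.0663 to 0.544). Of the amnioserosa calls only that of ush in ftz mutants was kept, while srp and Pxn (0.65, adjusted p = 0.0169) in ftz mutants passed. The part of these tissues in the 3 h result was not tested.

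At 2 h the values were lower and less uniform. ImpL2 was lower in eve mutants than in wild type by -0.66 (SE 0.22, 95% interval -1.09 to -0.22, limma, Benjamini-Hochberg adjusted p = 0.0222, 21.6% of features called, 10.3% as higher and 11.3% as lower), or 1.58-fold. The groups overlapped, since the eve array at -0.52 lay above the wild type array at -0.74. The call ended when eve replicate 2 or 3 or wild type replicate 1 or 2 was left out, with values from -1.01 to -0.42 and adjusted p from 0.000629 to 0.21 over the 6 fits that each left out 1 array. Within the slide run that held all 3 eve arrays and 2 wild type arrays the difference was -0.75. In ftz mutants the difference at 2 h was -0.16 (SE 0.22, 95% interval -0.60 to 0.27, adjusted p = 0.809, 6.1% called, 2.37% as higher and 3.73% as lower), and within that run it was -0.25. Between the mutants it was -0.50 (eve minus ftz, SE 0.22, 95% interval -0.93 to -0.06, adjusted p = 0.0936, 22.6% called). Whether each mutant's difference changed from 2 to 3 h was asked after the values had been seen. The change was -1.10 for ftz (SE 0.31, adjusted p = 0.105, 0.41% of features called) and -0.44 for eve (SE 0.31, adjusted p = 0.356, 15.9% called), and neither passed.

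From 6 to 10 h the 3 genotypes formed 3 levels, described here without a test because the gene was chosen on them. In wild type, ImpL2 read 0.73, 1.0003 and 1.67 at 6 h, 0.75, 1.38 and 1.51 at 7 h, and 0.38, 0.79 and 1.10 at 8 h. At 9 h the arrays read -0.042, 0.93 and 0.68 and at 10 h 0.63, 0.72 and 1.07. All but 1 of these 15 arrays lay at or above 0.38. The exception, at -0.042, belonged to the replicate series numbered 1, which held the lowest wild type array at each of the 5 times and averaged 0.49, against 0.96 and 1.21 in the other wild type series.

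In eve mutants ImpL2 read 0.021, -0.071 and -0.23 at 6 h, and -0.62, -0.57 and -0.60 at 7 h. It read -0.38, -0.19 and -0.21 at 8 h, -0.26, -0.50 and -0.24 at 9 h, and 0.074, -0.070 and -0.035 at 10 h. The 3 arrays of 7 h were the lowest of the eve arrays in this period and lay close together (SD 0.028, n = 3). At each of the 5 times all eve arrays lay below all wild type arrays. The 3 replicate series averaged -0.23, -0.28 and -0.26.

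In ftz mutants ImpL2 read 0.34, 0.25 and 0.21 at 6 h, 0.16, 0.35 and 0.45 at 7 h, and 0.20, 0.25 and 0.27 at 8 h. It read 0.26, 0.27 and -0.047 at 9 h and 0.40, 0.052 and 0.037 at 10 h. All ftz arrays lay below all wild type arrays at 4 of the 5 times, with an overlap at 9 h, and the 3 series averaged 0.27, 0.23 and 0.18.

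Averaged over 6 to 10 h, ImpL2 stood at 0.89 ± 0.41 in wild type, 0.23 ± 0.14 in ftz mutants and -0.26 ± 0.10 in eve mutants (SD between arrays of the same hour, n = 15 arrays). The eve mean was 2.21-fold below wild type, at -1.14 on the log2 scale (SE 0.097), in a contrast that called 39.4% of all features, 19.6% as higher and 19.8% as lower. It was largest at 7 h, at -1.81, and smallest at 10 h, at -0.82. The ftz mean was 1.58-fold below wild type, at -0.66 (SE 0.097, 40.4% of all features called, 20.7% as higher and 19.7% as lower), from -0.89 at 7 h to -0.36 at 9 h. Eve minus ftz was -0.49 (SE 0.097, 36% called). With the 5 times averaged into 1 value per replicate series, which leaves 3 values per genotype, the SE of each was 0.14. These contrasts share their arrays, and the eve contrast chose the gene. The averaging by series was run for ImpL2 alone. Tests of other genes over 6 to 10 h, and the shares called, take the arrays of a series as independent, which they may not be.

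**Figure D2:**
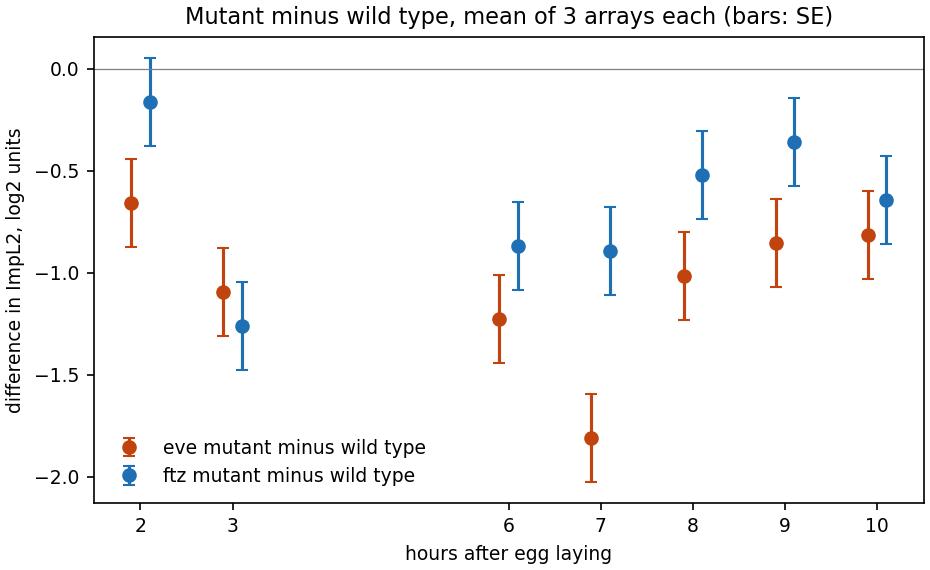
Mutant minus wild type in ImpL2 at each hour (log2 units), as the difference of 2 means of 3 arrays with its SE from limma; the values of 6 to 10 h are a description. Both mutants lie below 0 at all 7 times, with the largest difference at 7 h in eve (-1.81) and at 3 h in ftz (-1.26).

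The differences within slide runs and those with estimated age as a covariate had the same sign. Within the run of slides 56 to 74 the eve difference was -0.89 at 6 h, -1.66 at 7 h, -1.23 at 8 h, -1.06 at 9 h and -0.999 at 10 h, with 1 or 2 arrays on each side. In the run of slides 80 to 87 it was -0.46 at 9 h between 1 array of each genotype. Within the run of slides 6 to 15 the ftz difference was -1.46 at 6 h and -1.11 at 7 h, against 1 wild type array each. The wild type arrays of 6 and 7 h in that run, at 1.67 and 1.51, were the highest of all.

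Each array of 6 to 10 h was also placed on the wild type time course by its whole profile without ImpL2. On that scale eve arrays stood 1.08 h and ftz arrays 1.13 h further on than wild type arrays, relative to their labels. This lead was not uniform. Eve arrays of 8 h were placed at 9.5 to 9.55 h and wild type arrays of 8 h at 7.05 to 8.5 h. At 10 h the places were 9.65 to 9.8 h and 9.4 to 9.55 h. With this estimated age as a covariate the differences were -1.37 (SE 0.12) for eve and -0.89 (SE 0.12) for ftz. The covariate was added to a model of these arrays with a mean per group. It thus drew only on differences between arrays of the same group. SEs could widen, as that of InR in eve mutants did from 0.064 to 0.094. Eve arrays from about 9.5 to 9.8 h of estimated age lay between -0.50 and 0.074, whereas the 4 wild type arrays above 9 h lay between 0.63 and 1.07. At younger estimated ages the order was not uniform. The wild type array at 7.7 h (-0.042) lay below the eve array at 7.6 h (0.021) but above that at 7.7 h (-0.23). It also lay below the ftz arrays from 7.25 to 7.55 h (0.16 to 0.34).

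**Figure D3:**
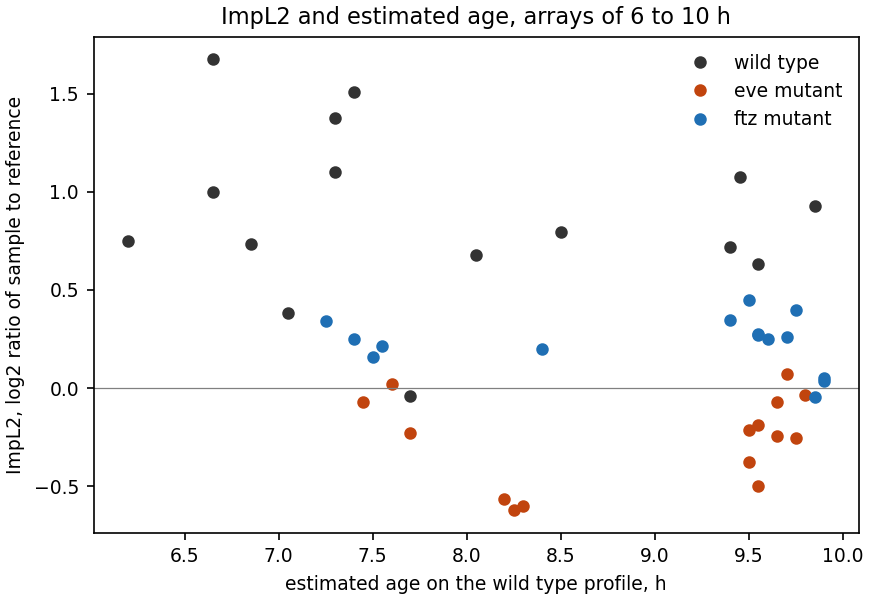
ImpL2 (log2 ratio of sample to reference) against the estimated age in hours on the wild type profile, 1 point per array of 6 to 10 h. Near 9.5 h of estimated age the eve points lie below the wild type points, whereas at about 7.7 h the wild type array at -0.042 lies below the eve array at 0.021.

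The trend over 6 to 10 h is orthogonal to the mean that chose the gene. In wild type ImpL2 fell by 0.14 log2 units per hour (SE 0.048, limma, Benjamini-Hochberg adjusted p = 0.0483, 15.6% of features called). This was at the threshold: the slope was -0.15 (adjusted p = 0.0855) without series 2, -0.10 (adjusted p = 0.261) without series 3 and -0.055 (adjusted p = 0.643) with slide runs as a term, and the adjusted p went from 0.00504 to 0.643 over all alternatives other than left-out series. In eve mutants the slope was 0.043 per hour (SE 0.048, 95% interval -0.054 to 0.14, adjusted p = 0.615, 18.3% called) and in ftz mutants -0.037 (SE 0.048, 95% interval -0.13 to 0.060, adjusted p = 0.679, 19.9% called). The slopes of eve and wild type differed by 0.18 per hour (SE 0.068, adjusted p = 0.159, 3.16% called) and those of ftz and wild type by 0.098 (SE 0.068, adjusted p = 0.544, 3.53% called), so neither difference passed.

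In the order of the 21 group means, wild type at 7 h (1.21), 6 h (1.14) and 3 h (1.11) came first, followed by wild type at 10 h (0.81), 8 h (0.76) and 9 h (0.52). The 5 ftz groups of 6 to 10 h followed, between 0.32 and 0.16. Below these came eve at 3 h (0.0132), eve at 10 h (-0.0102) and 6 h (-0.093), ftz at 3 h (-0.15), and eve at 8 h (-0.26) and 9 h (-0.33). The last places were held by wild type at 2 h (-0.56), eve at 7 h (-0.60), ftz at 2 h (-0.72) and eve at 2 h (-1.22). In each of the 20 pairs of neighbours the arrays of the groups overlapped. The SD within groups was 0.28, larger than that of 90.4% of features.

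The measured genes of insulin-like peptides and of another secreted binder had smaller differences than ImpL2 itself, which was not tested as a comparison. Of 9 listed insulin-like peptide and binder genes 3 were measured: Ilp2, a peptide bound by ImpL2, Ilp8, a relaxin-like peptide known from damaged larval discs, and Sdr, a secreted decoy of the insulin receptor. Over 6 to 10 h in eve mutants Ilp2 was lower by -0.20 (SE 0.066, adjusted p = 0.0122), Ilp8 lower by -0.11 (SE 0.043, adjusted p = 0.0297) and Sdr higher by 0.16 (SE 0.044, adjusted p = 0.00366). In ftz mutants Ilp2 was lower by -0.20 (SE 0.066, adjusted p = 0.0111), and Ilp8 (-0.078) and Sdr (0.0120) did not pass. At 2 h Ilp8 was lower in eve mutants by -0.58 (SE 0.096, limma, adjusted p = 1.04e-05), and at 3 h none of these genes was called in either mutant. With slide runs as a term Ilp2 did not pass in either mutant, and with the age covariate none of these calls over 6 to 10 h was kept. Of all features 39.4% were called in eve and 40.4% in ftz mutants over 6 to 10 h. The shares were 21.6% in eve mutants at 2 h, and 9.57% and 13.7% in eve and ftz mutants at 3 h. Calls of so few genes do not set this list apart.

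For the receptor and the cascade below it, 6 of 12 listed genes were measured, and the calls at 3 h were all lower. At 3 h the receptor gene InR was lower by -0.66 in eve mutants (SE 0.14, limma, adjusted p = 0.00163) and by -0.52 in ftz mutants (SE 0.14, adjusted p = 0.0104). The kinase gene Akt was lower by -0.54 (SE 0.16, adjusted p = 0.0209) and -0.58 (SE 0.16, adjusted p = 0.00934). Pdk1, which encodes the kinase that activates Akt, was lower in ftz mutants by -0.34 (SE 0.11, adjusted p = 0.0298). So 2 of 6 were lower in eve mutants and 3 of 6 in ftz mutants at 3 h and none was higher, beside 4.17% and 7.07% of all features called lower, with list medians of -0.24 and -0.26 beside -0.00487 and 0.0101 over all features. Both comparisons use the same wild type arrays, which were also those of high ImpL2. With slide runs as a term Akt in ftz mutants (-0.67, adjusted p = 0.0232) was the only one of these calls kept.

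Over 6 to 10 h InR was higher in eve mutants by 0.22 (SE 0.064, limma, adjusted p = 0.00549) and in ftz mutants by 0.27 (SE 0.064, adjusted p = 0.000778). The other 5 measured genes, among them the adaptor gene chico and the transcription factor gene foxo, did not pass in eve mutants, at a list median of 0.036 beside 0.00292 over all features. In ftz mutants melt, which encodes a modulator of insulin signalling at the membrane, was higher by 0.33 (SE 0.058, adjusted p = 1.14e-05) and Akt lower by -0.22 (SE 0.071, adjusted p = 0.0107), at a list median of 0.045 beside 0.00532. With slide runs as a term InR (0.14, adjusted p = 0.354) and Akt (-0.17, adjusted p = 0.324) did not pass in ftz mutants. With the age covariate InR did not pass in either mutant, at 0.068 and 0.11. At 2 h 1 of the 6 was lower in each mutant: melt in eve mutants by -0.72 (SE 0.13, adjusted p = 4.12e-05) and Pdk1 in ftz mutants by -0.37 (SE 0.11, adjusted p = 0.03), the latter at an adjusted p of 0.0584 with slide runs. Of all features 11.3% in eve and 3.73% in ftz mutants were called lower at 2 h. Over 6 to 10 h 39.4% of all features were called in eve and 40.4% in ftz mutants.

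Of 9 TOR genes 6 were measured. The kinase gene S6k, a target of TOR, was lower in ftz mutants by -0.87 at 2 h (SE 0.12, limma, adjusted p = 3.83e-06) and by -0.90 at 3 h (SE 0.12, adjusted p = 1.07e-06), and both calls held with slide runs as a term. Over 6 to 10 h gig, the Tsc2 gene that restrains TOR, was higher in eve mutants by 0.18 (SE 0.056, adjusted p = 0.00837). In ftz mutants over the same hours raptor, a TOR complex subunit gene, was lower by -0.15 (SE 0.064, adjusted p = 0.0486). In eve mutants at 2 h rictor, a subunit gene of the second TOR complex, was higher by 0.49 (SE 0.14, adjusted p = 0.00651) and crc, the fly ATF4 gene, lower by -0.86 (SE 0.24, adjusted p = 0.00741). None of the 6 was called in eve mutants at 3 h, where 9.57% of all features were. The shares of all features called were 21.6% in eve mutants at 2 h, and 6.1% and 13.7% in ftz mutants at 2 and 3 h. Over 6 to 10 h they were 39.4% in eve and 40.4% in ftz mutants. With the age covariate neither gig nor raptor passed, and raptor did not pass with slide runs.

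Of the 5 listed Imp genes isolated with ImpL2, 4 were measured, and 3 of them were lower at 6 to 10 h in eve mutants, where 19.8% of all features were: ImpL1 by -0.30 (SE 0.099, limma, adjusted p = 0.0118), ImpE3 by -0.15 (SE 0.037, adjusted p = 0.000962) and ImpE1 by -0.13 (SE 0.050, adjusted p = 0.0381). ImpE2 stood at -0.25 (SE 0.22) and did not pass. The list median was -0.20 beside 0.00292 over all features. In ftz mutants, where 19.7% of all features were called lower, ImpE3 was lower by -0.094 (SE 0.037, adjusted p = 0.0393) and the other 3 did not pass. At 2 h and at 3 h none of the 4 was called in either mutant. Of all features 21.6% and 9.57% were called at these times in eve mutants and 6.1% and 13.7% in ftz mutants. ImpE2 stood at 0.78 in eve and -0.46 in ftz mutants at 2 h (SE 0.49). At 3 h, where ImpL2 was lower in both, ImpL1 stood at -0.62 in eve mutants (SE 0.22, limma, adjusted p = 0.063). In ftz mutants ImpL1 stood at -0.51 (SE 0.22, adjusted p = 0.126). With the age covariate none of the Imp gene calls over 6 to 10 h was kept, and with slide runs those of ImpE1 in eve and ImpE3 in ftz mutants were lost.

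Genes of ecdysone itself were called in both directions. Of 7 synthesis genes 4 were measured. The hydroxylase gene dib was lower over 6 to 10 h in eve mutants by -0.42 (SE 0.065, limma, adjusted p = 9.75e-07) and in ftz mutants by -0.62 (SE 0.065, adjusted p = 1.67e-10), and both calls held with slide runs as a term and with the age covariate. In ftz mutants spo, another cytochrome P450 gene of the pathway, was lower by -0.46 (SE 0.15, adjusted p = 0.0106), while shd, which makes the active hormone, was higher by 0.34 (SE 0.094, adjusted p = 0.00294). With the age covariate neither spo nor shd passed, and with slide runs shd did not. At 2 h spo was lower in eve mutants by -2.37 (SE 0.33, adjusted p = 5.52e-07). Cyp18a1, which inactivates the hormone, was not called in either mutant at any of these times. Of all features 39.4% in eve and 40.4% in ftz mutants were called over 6 to 10 h, and 21.6% in eve mutants at 2 h.

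Of 13 ecdysone response genes 8 were measured, and over 6 to 10 h 4 were higher in eve mutants, 5 in ftz mutants and none lower, beside 19.6% and 20.7% of all features called higher. The nuclear receptor gene Hr39 was higher by 0.26 (SE 0.045, limma, adjusted p = 8.97e-06) in eve and 0.28 (SE 0.045, adjusted p = 2.55e-06) in ftz mutants. Hr3, also a nuclear receptor gene, was higher by 0.21 (SE 0.076, adjusted p = 0.0246) and 0.40 (SE 0.076, adjusted p = 3.58e-05). The zinc-finger gene br was higher by 0.23 (SE 0.036, adjusted p = 2.11e-06) and 0.10 (SE 0.036, adjusted p = 0.0205). Eip78C was called higher in both too, at 0.14 and 0.15, although its 2 array rows had opposite signs, and the transporter gene E23 was higher in ftz mutants by 0.32 (SE 0.068, adjusted p = 0.000208). At 2 h br was lower in eve mutants by -0.31 (SE 0.081, adjusted p = 0.00445) and in ftz mutants by -0.29 (SE 0.081, adjusted p = 0.0206). Of the rows of br 1 was higher in eve mutants at 2 h. At the same time Hr3 was higher (0.46, SE 0.17, adjusted p = 0.0477) and ftz-f1, a nuclear receptor gene, lower (-0.45, SE 0.097, adjusted p = 0.000508) in eve mutants, and EcR was lower in ftz mutants (-0.42, SE 0.12, adjusted p = 0.0211). At 2 h 21.6% of all features were called in eve and 6.1% in ftz mutants. The hormone receptor genes EcR and usp did not pass over 6 to 10 h in either mutant. List medians were 0.14 and 0.13 beside 0.00292 and 0.00532 over all features. With the age covariate none of these genes was called in eve mutants and 1, Hr39, in ftz mutants. With slide runs, Hr3 and E23 were the only ones of the 5 ftz calls kept.

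**Figure D4:**
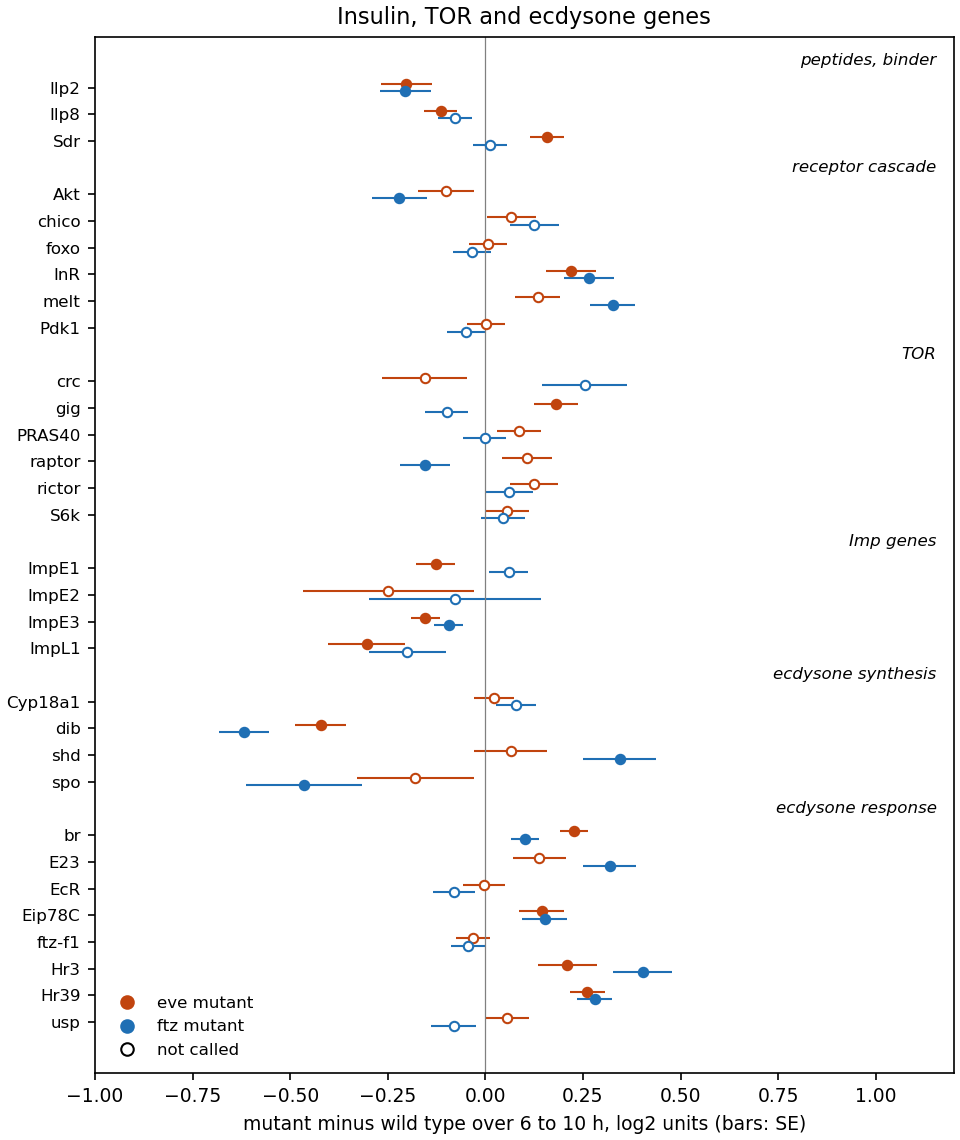
Mutant minus wild type over 6 to 10 h (log2 units, bars are SE, 15 arrays per genotype) for the measured insulin, TOR, Imp and ecdysone genes. Filled points passed limma's test, which took the arrays as independent, and open points did not. Values lie between -0.62 (dib in ftz mutants) and 0.40 (Hr3 in ftz mutants), against -1.14 and -0.66 for ImpL2 itself.

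Markers of tissues gave mixed counts over 6 to 10 h. In the trachea list 5 of 7 were measured, and over these hours in eve mutants the FGF receptor gene btl was lower by -0.45 (SE 0.058, limma, adjusted p = 3.07e-08) and its ligand gene bnl by -0.28 (SE 0.050, adjusted p = 1.25e-05), with none higher. In ftz mutants btl was lower by -0.23 (SE 0.058, adjusted p = 0.00143) and the chitin deacetylase genes serp (0.69, SE 0.10, adjusted p = 5.47e-07) and verm (0.64, SE 0.08, adjusted p = 3.35e-08) were higher, although 1 of the 5 rows of verm was lower. The mean level of the 5 trachea genes per array ran from -0.65 to -0.30 in eve mutants, from -0.44 to 0.39 in ftz mutants and from -0.64 to 0.13 in wild type. With slide runs btl in ftz mutants (-0.091, adjusted p = 0.556) missed the threshold, as did btl and serp in ftz mutants once age was a covariate. The fat body marker srp was lower in both mutants, by -0.30 (SE 0.066, adjusted p = 0.000371) and -0.33 (SE 0.066, adjusted p = 7.10e-05). Fbp1, the other of 2 measured fat body genes, did not pass in eve (-0.067, adjusted p = 0.363) or ftz mutants (-0.023, adjusted p = 0.774). In eve mutants srp did not pass with age as a covariate (adjusted p = 0.0943). Of all features 19.6% were called higher and 19.8% lower in eve mutants over 6 to 10 h. In ftz mutants the shares were 20.7% and 19.7%.

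Of 4 measured neuroectoderm genes ind and D were lower and SoxN higher in each mutant, with ind at -0.29 (SE 0.056, limma, adjusted p = 6.17e-05) in eve mutants. Of 7 amnioserosa genes Doc3 (-0.31, SE 0.06, adjusted p = 0.000155) and ush (-0.22, SE 0.06, adjusted p = 0.00271) were lower in eve mutants and none higher. In ftz mutants Doc3 and zen were lower and Doc2 higher. Of 4 hemocyte genes 2 were higher and 1 lower in eve mutants, and 2 were lower in ftz mutants. Of all features 19.6% and 19.8% were called higher and lower in eve mutants, and 20.7% and 19.7% in ftz mutants. With slide runs ind, SoxN, zen, Doc2, Doc3 and crq in ftz mutants and Hml and Pxn in eve mutants did not pass. Once age was a covariate ind, D, ush, Doc3, Hml and NimC1 in eve mutants and ind, SoxN, Doc3 and crq in ftz mutants did not. In each of the 5 tissue lists the per-array mean levels of the genotypes overlapped, and the part of these tissues in the ImpL2 values was not tested.

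None of the 4 measured genes next to ImpL2 on the chromosome was called lower in either mutant at 2 h, at 3 h or over 6 to 10 h. Of all features 11.3%, 4.17% and 19.8% were called lower at these times in eve mutants, and 3.73%, 7.07% and 19.7% in ftz mutants. So few genes do not set ImpL2 apart from its neighbours. The nearest measured neighbours in the RefSeq order are CG43367 and Cpr64Ad on one side and Sqor and CG1265 on the other. CG43367, the closest, differed by 0.037 (SE 0.056, limma, adjusted p = 0.633) in eve mutants over 6 to 10 h and by -0.23 (SE 0.12, adjusted p = 0.285) at 3 h. Sqor, which encodes a sulfide quinone oxidoreductase, was higher at 6 to 10 h in eve mutants by 0.22 (SE 0.057, adjusted p = 0.00196). The cuticle protein gene Cpr64Ad stood at -0.31 (SE 0.13, adjusted p = 0.0529) and CG1265 at 0.0123 (SE 0.053, adjusted p = 0.878), and none of the 4 was called in ftz mutants over these hours. Earlier, Cpr64Ad was higher in eve mutants at 2 h by 0.82 (SE 0.29, adjusted p = 0.0367) and CG1265 at 3 h by 0.37 (SE 0.12, adjusted p = 0.0378).

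Across the 21 group means, ImpL2 was set against each of 9290 other named genes by Pearson's r, which describes likeness and is given with no p. The median r was -0.027, and 19 genes, or 0.205%, had an r above 0.8. Closest was gb (0.90), the genderblind gene of an amino acid exchanger, followed by l(3)neo38 (0.90), simj (0.86), a chromatin remodelling subunit gene, and CG4896 (0.85). The segment polarity gene en (0.84) came next, then CG1910 (0.83), Bdp1 (0.83), a subunit gene of an RNA polymerase III factor, and inv (0.83), the paralog of en. Over the 7 wild type groups alone the r of en with ImpL2 was 0.96, over the 7 ftz groups 0.86 and over the 7 eve groups 0.50. The groups share a reference, and all mutant differences share the wild type arrays.

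Likeness over group means includes the mutant differences, so the following values are no independent support. Over 6 to 10 h gb was lower by -0.65 (adjusted p = 5.96e-07) in eve and -0.50 (adjusted p = 4.49e-05) in ftz mutants. The values of en were -0.34 (adjusted p = 1.78e-05) in eve and -0.075 (adjusted p = 0.342) in ftz mutants. At 3 h en was lower in ftz mutants by -0.53 (limma, adjusted p = 0.00652) and stood at -0.39 (adjusted p = 0.0666) in eve mutants. Within groups, where genotype and time are fixed, the r with ImpL2 over the 63 arrays was -0.016 for gb, 0.058 for en, -0.16 for inv and 0.38 for CG1910. The most opposite profiles belonged to Gclm (-0.91), which encodes a subunit of glutathione synthesis, CG7328 (-0.91), CG14805 (-0.90) and CG2691 (-0.88).

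**Figure D5:**
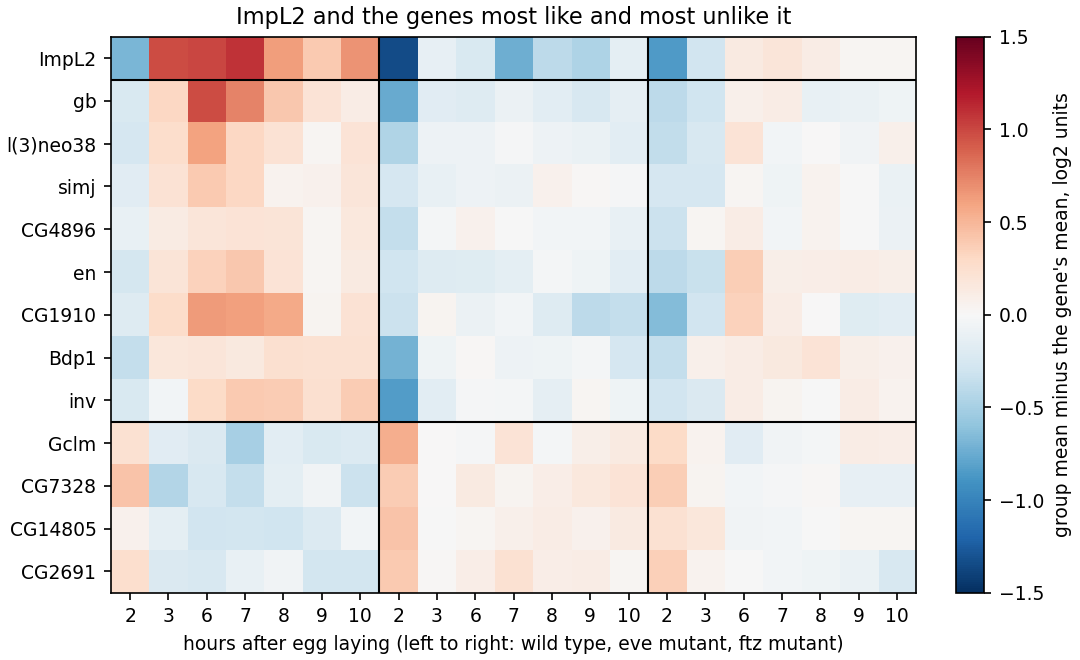
Group means (colour, log2 units, each gene centred on its own mean) of ImpL2, of the 8 named genes with the highest r to it (0.83 to 0.90) and of the 4 with the lowest (-0.91 to -0.88), over 7 times in wild type, eve and ftz mutants. Each of the 8 similar genes is lower in wild type at 2 h than at 6 h, and each has a smaller range than ImpL2.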

How the data were processed

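Total RNA of embryos (Cy3) was hybridised against a common reference (Cy5) on 2-colour arrays, per the labels. The authors deposited 1 table of log ratios, taken as log2 because the submitters' processing notes name limma; the base, background correction and within-array normalization stay unstated, being not given in the sources used here. Of 20000 rows 13228 had values. All arrays held the same sorted log2 values to within 0.000784, as after quantile normalization, and no further scaling was applied.

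Rows were named through the platform annotation, with symbols updated by gene ID for 10092 rows; 10095 rows had 1 symbol, 220 several and 2913 none here. Rows of 1 symbol were averaged, giving 12424 features. All 63 arrays entered 1 limma model (limma 3.58.1, R 4.3.3) with a mean per group, 42 residual degrees of freedom and empirical Bayes moderation. Tests were 2-sided, with Benjamini-Hochberg adjustment over all features of a contrast and a threshold of 0.05, and the model was tested on simulated data. Slopes were linear contrasts over 6, 7, 8, 9 and 10 h. A gap of over 3 in slide number started a new run. Some numbers recurred, such as 57 in wild type at 6 and 8 h and 69 in eve at 6 h and ftz at 2 h. A number therefore does not identify a single slide, and what a run stands for is not given in the labels. Age was the point of highest Pearson correlation on the interpolated wild type profile, in steps of 0.05 h, with each wild type array left out of the profile it was placed on, and can only lie between 6 and 10 h.

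The gene and the gene lists were chosen with earlier results of these data known. The text names all measured peptide and binder genes, up to 6 called members of every other list, the 8 genes most and 4 least like ImpL2, and 2 measured neighbours on each side; a few uncalled members of short lists were added after their values were seen. Alternatives covered arrays left out, slide runs, replicate numbers, scaling, moderation, features, age and averaging. The number of arrays limits the precision.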

Additional observations from a re-analysis of the deposited data

How the results depend on the processing

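The rise of ImpL2 from 2 to 3 h in wild type and in eve mutants and the lower level in ftz mutants at 3 h kept their direction and passed under all alternatives, left-out arrays included. Within eve mutants the rise cannot be told apart from slide run, since the arrays of 2 h and of 3 h shared no run. With slide runs as a term the eve difference at 3 h was -0.58 and the wild type slope -0.055, and neither passed. In fits of the compared groups alone neither the eve difference at 2 h (-0.66, adjusted p = 0.143) nor the wild type slope (-0.14, adjusted p = 0.281) passed. Same-numbered arrays of different genotypes did not deviate together (r from -0.26 to 0.071 at 2 and 3 h, and -0.26 to 0.11 for eve and ftz later), so the numbers did not pair the genotypes, although wild type series 1 was the lowest at each later hour and arrays of a series may not be independent; with the replicate number as a block, eve minus ftz at 2 h (-0.50, adjusted p = 0.0187) and the slope difference of eve and wild type (0.18, adjusted p = 0.0351) passed. With all arrays the described differences over 6 to 10 h ranged from -1.37 to -1.14 (eve), -0.89 to -0.66 (ftz) and -0.49 to -0.29 (eve minus ftz), and with a series left out from -1.34 to -0.98, -0.85 to -0.50 and -0.51 to -0.47.

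Leaving out arrays or series gave -1.01 to -0.42 for eve and -0.32 to 0.031 for ftz at 2 h, the latter positive without ftz replicate 2. Eve minus ftz at 2 h went from -0.85 to -0.26, and passed without eve replicate 1 or ftz replicate 2. The ftz step from 2 to 3 h went from 0.38 to 0.72, and passed without ftz replicate 3 at 2 h. The wild type slope went from -0.15 to -0.10.

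The change of the eve difference from 2 to 3 h (-0.44) became 0.027 (adjusted p = 0.983) with slide runs as a term, and passed in neither fit.

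Counts of called features moved by over 1.5 times with slide runs as a term at 3 h (eve from 1189 to 226, ftz from 1704 to 1006, eve against ftz from 665 to 249), for 3 h against 2 h in eve (2932 to 929), and over 6 to 10 h for ftz (5023 to 2122) and eve against ftz (4477 to 1741). With the age covariate they went from 4901 to 1978 for eve and from 5023 to 2485 for ftz. The causes were not tested.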
